A study of Homo sapiens with 8 samples.

Results

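The genes described here encode the J-domain proteins (DNAJ genes, the co-chaperones of HSP70), the HSP90 chaperones, the mitochondrial pair HSP60 and HSP10, and the subunits of TRiC, the cytosolic chaperonin. They were chosen by name: every gene whose symbol is DNAJA, DNAJB or DNAJC followed by a number, leaving out DNAJB9, DNAJC3 and DNAJC12, together with HSP90AA1, HSP90AB1, TRAP1, HSPD1, HSPE1, TCP1, CCT2, CCT3, CCT4, CCT5, CCT6A, CCT7 and CCT8. This gave 53 of the 60332 genes in the table, 40 DNAJ genes and 13 others. Of these, 48 reached a mean of 1 FPKM over the libraries and were tested, among 15175 genes tested in all. FPKM is the number of sequenced fragments of a gene scaled to its transcript length and to the size of the library, so levels given in FPKM can be set side by side between genes.

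RNA-seq was carried out in RD-ES and SK-N-MC, both Ewing sarcoma cell lines, with 2 libraries in each of 4 groups. Control cells of each line received a lentivirus with empty dCas9-KRAB, a Cas9 that cannot cut DNA fused to a repressor domain. In eKD2 cells the same repressor was directed to the LOXHD1 enhancer, next to its GGAA repeat. By these labels all cells, controls included, carried dCas9-KRAB, although the study's text calls the cells compared with eKD2 parental. The virus was given at a multiplicity of infection of 10, and infected cells were selected for 3 days with 1 µg/ml puromycin. The resulting pools were grown for 5 passages at most, and those of eKD2 carried 1 guide design. LOXHD1 stood at 21.4 and 21.2 FPKM in RD-ES control cells and at 1.04 and 1.02 FPKM after eKD2. In SK-N-MC it went from 159 and 169 FPKM to 11 and 11.95, so the libraries matched their labels. The study compared control with eKD2 cells to ask what loss of LOXHD1 does to the transcriptome. A further comparison between the 2 lines' controls was added here, and it compares these 2 lines only.

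Chaperones help other proteins to fold. J-domain proteins bring a client to HSP70 and trigger its ATPase, and each is tied to a place or task, such as the endoplasmic reticulum, mitochondria, clathrin vesicles, ribosomes or the spliceosome. HSP90 takes clients, many of them kinases and transcription factors, after HSP70, and TRiC folds actin, tubulin and other proteins inside a ring of unlike subunits. Heat shock factor 1 induces part of these genes under stress, while others are made at a steady level in growing cells.

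The depth of a library is not given with FPKM values. From the steps of the lowest values, library sizes of about 7.46 to 30.3 M reads were estimated, RD-ES eKD2 replicate 1 being the shallowest, as a rough figure only. Between the libraries of a group the members' log2 values correlated with r of 0.995 to 0.998 across genes, which are not independent replicates. Over all genes tested r was lower, at 0.937 to 0.945. All 9 Ewing sarcoma markers listed, such as CD99, NKX2-2 and FLI1, passed the filter. Of 10 blood, epithelial and endothelial markers found, CD3E and KRT5 were at 0 in the 8 libraries. Their summed level was 1.23 to 1.66 FPKM in RD-ES control and 2.11 to 6.50 in RD-ES eKD2. In SK-N-MC it was 27.2 to 27.6 FPKM in control and 23.4 to 26.6 in eKD2, the higher sums coming from PTPRC and EPCAM. In RD-ES eKD2, CDH1 was at 3.50 FPKM in replicate 1, the shallowest library, and at 0.0369 in replicate 2. The part of these markers in the results was not tested.

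In RD-ES control cells TRiC and its neighbours were among the abundant transcripts. CCT7, a TRiC subunit, was at 901 and 978 FPKM, CCT5 at 851 and 832, and HSPD1, the mitochondrial chaperonin HSP60, at 869 and 855. HSP90AB1, the constitutive cytosolic HSP90, was at 749 and 702 FPKM, and HSP90AA1, the inducible cytosolic form, at 660.5 and 614. TRAP1, the HSP90 of mitochondria, was far below both, at 157 and 159 FPKM.

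The 8 TRiC subunits, which stand at equal numbers in the assembled ring, were not at equal transcript levels. CCT7 was the highest in every library and CCT4 the lowest in 6 of them, CCT8 taking that place in both SK-N-MC eKD2 libraries. The ratio of highest to lowest was 2.99 to 3.50 in RD-ES control, 3.28 to 3.66 in RD-ES eKD2, 3.46 to 3.72 in SK-N-MC control and 3.72 to 4.08 in SK-N-MC eKD2.

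**Figure D1:**
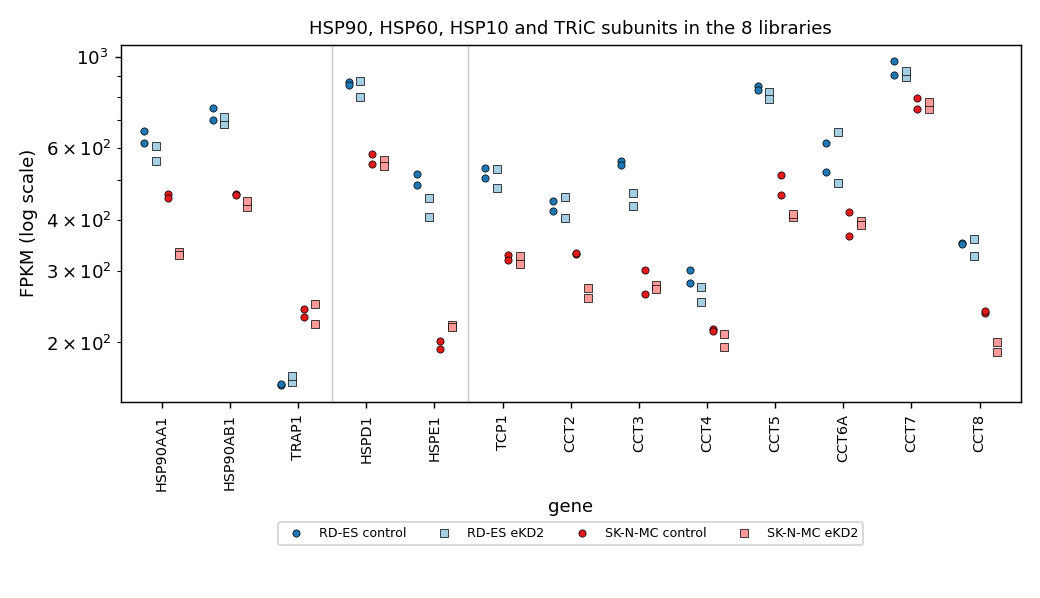
FPKM (log axis) of the 13 HSP90, HSP60, HSP10 and TRiC genes, with 1 point per library and 4 groups by colour and shape; grey lines part HSP90, HSP60 with HSP10, and TRiC. The SK-N-MC points lie under the RD-ES points for all but TRAP1, which is at 157 to 166 FPKM in RD-ES and 222 to 248 in SK-N-MC.

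The DNAJ genes were lower and spread over a wider range. Summed over all 40, they reached 1333 to 1414 FPKM in RD-ES and 1152 to 1246 in SK-N-MC. DNAJA1, a class A partner of cytosolic HSP70, held 18.3 and 17.5% of that sum in RD-ES control but 7.33 and 7.63% in SK-N-MC control. DNAJC7, which binds both HSP70 and HSP90 through TPR repeats, was the highest DNAJ gene in SK-N-MC, at 158 and 156 FPKM in control.

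Each cell compartment had its own leading J-protein. DNAJC10, a disulfide reductase of the endoplasmic reticulum, and DNAJB11, a cofactor of BiP there, led that group with 66.9 and 60.6 FPKM and 61.8 and 68.1 FPKM in RD-ES control. DNAJC11, a protein of the mitochondrial inner membrane organising complex, led the mitochondrial class C genes in RD-ES, at 92.1 and 82.8 FPKM. In SK-N-MC that place was held by DNAJC19, of the protein import motor, at 70.4 and 70.3 FPKM. DNAJC8, found with the spliceosome, followed DNAJC7 in its group with 133 and 124 FPKM in RD-ES control.

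Other DNAJ genes were near the floor. DNAJB13, a protein of sperm flagella and cilia, was between 0.793 and 1.41 FPKM, and DNAJC22 between 0.587 and 1.02 in RD-ES. DNAJA4, DNAJB3, DNAJB7, DNAJB8 and DNAJC15 did not reach the filter and were not tested: DNAJB3 and DNAJB8 are listed at 0 in every library, DNAJA4 and DNAJB7 reached 0.0592 and 0.0354 FPKM at most, and DNAJC15, a mitochondrial J-protein, was between 0.00519 and 0.477 FPKM.

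**Figure D2:**
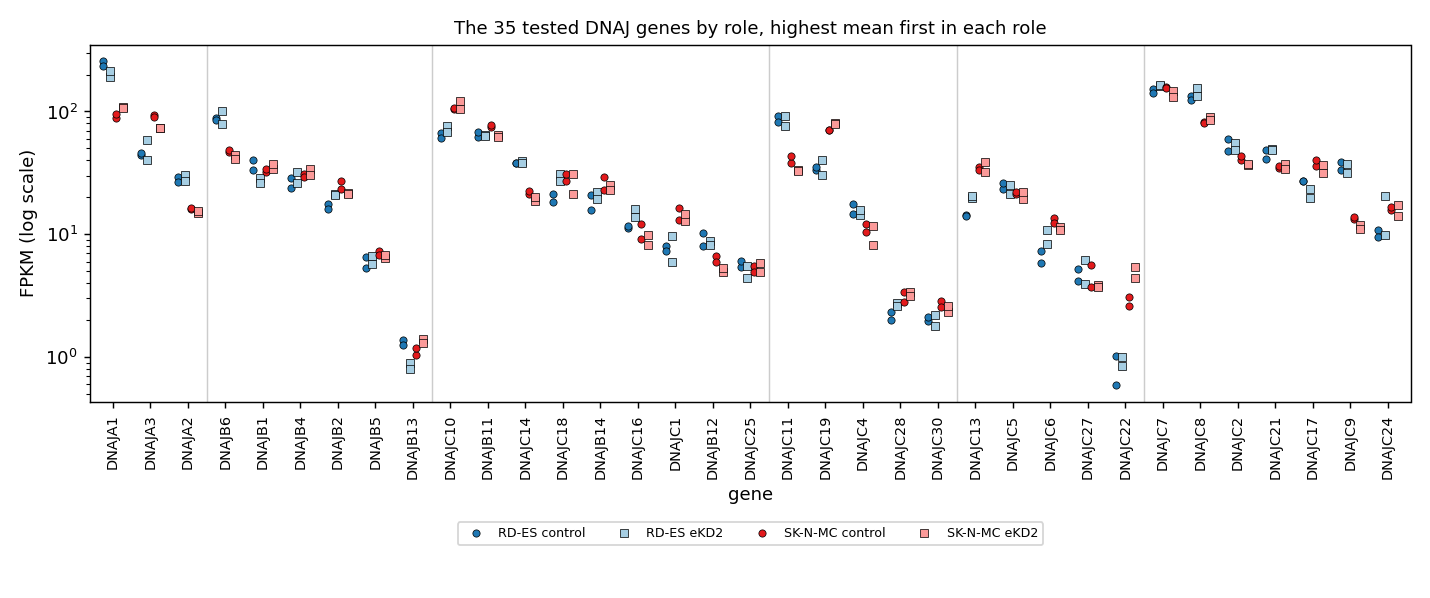
FPKM (log axis) of the 35 tested DNAJ genes, 1 point per library, grouped from left to right as class A, class B of cytosol and nucleus, endoplasmic reticulum, mitochondria, vesicles, and nucleus with ribosome and cytosol. Levels run from under 1 FPKM for DNAJB13 and DNAJC22 to 258 FPKM for DNAJA1 in RD-ES control.

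The clearest differences lay between the lines. Between SK-N-MC control and RD-ES control, 33 of the 48 tested members passed the test (limma, adjusted p under 0.05): 12 were higher in SK-N-MC and 21 lower. Over all genes tested, 31.4% were higher and 26.4% lower by the same rule, so the members' share was below the background for higher and above it for lower. The members' median log2 difference was -0.17, against 0.07 for all genes tested. In these bulk libraries fewer cells of a type and less RNA per cell cannot be told apart.

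All 8 TRiC subunits were lower in SK-N-MC. CCT3 was at 558 and 545 FPKM in RD-ES control and 262 and 301 in SK-N-MC control, with no overlap, a log2 difference of -0.97 ± 0.08 (SE; limma adjusted p = 0.000179). CCT5 was at 851 and 832 against 459 and 513 FPKM (log2 -0.79 ± 0.06; limma adjusted p = 0.000173). The smallest of the 8 differences was that of CCT7, at 901 and 978 against 744 and 792 FPKM (log2 -0.29 ± 0.06; limma adjusted p = 0.00736). The sum of the 8 was 4557 and 4431 FPKM in RD-ES control and 2938 and 3126 in SK-N-MC control. The calls of 5 subunits held in all 14 alternatives. That of CCT2 was lost under quantile normalization (limma adjusted p = 0.0541), and that of CCT7 there and without SK-N-MC control replicate 1 (limma adjusted p = 0.0519). CCT6A, at 617 and 524 against 365 and 417 FPKM (log2 -0.54 ± 0.15; limma adjusted p = 0.0243), lost its call in 7 of the 14, with RD-ES control replicate 1 or any SK-N-MC library left out among them (limma adjusted p of 0.0567 to 0.134).

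HSPE1, the HSP10 lid of mitochondrial HSP60, had the smallest adjusted p of all members. It was at 517 and 487 FPKM in RD-ES control and 193 and 202 in SK-N-MC control, 2.54-fold apart (log2 -1.34 ± 0.07; limma adjusted p = 3.73e-05). HSPD1, its partner, was at 869 and 855 against 548 and 579 FPKM (log2 -0.61 ± 0.06; limma adjusted p = 0.000381). The HSPD1 to HSPE1 ratio was thus 1.68 and 1.76 in RD-ES control and 2.84 and 2.87 in SK-N-MC control. HSPE1 has 26 listed processed copies, whose summed level was 2.13% of its own, and reads shared with them are uncertain.

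Of the HSP90 genes, both cytosolic forms were lower in SK-N-MC and the mitochondrial form was higher. HSP90AB1 was at 749 and 702 FPKM in RD-ES control and 461 and 458 in SK-N-MC control (log2 -0.66 ± 0.05; limma adjusted p = 0.000169). HSP90AA1 was at 660.5 and 614 against 461 and 453 FPKM (log2 -0.48 ± 0.06; limma adjusted p = 0.00117). TRAP1 went the other way, at 157 and 159 against 231 and 241 FPKM (log2 0.58 ± 0.07; limma adjusted p = 0.000803). Of the summed FPKM of these 3 genes, which leaves out the endoplasmic reticulum form HSP90B1, TRAP1 made up 10.0 and 10.8% in RD-ES control and 20.1 and 20.9% in SK-N-MC control. HSP90B1, no member by the rule, was at 1144 and 1035 FPKM in RD-ES control and 465 and 474 in SK-N-MC control. The exons of TRAP1 overlap DNASE1 on the other strand over 1477 bases, and the kit used does not mark strand.

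Among the 35 DNAJ genes, 11 were higher and 9 lower in SK-N-MC, or 31.4 and 25.7%, close to the 31.4 and 26.4% of all genes tested. DNAJA1 had the largest difference on the log2(FPKM + 1) scale, at 258 and 233 FPKM in RD-ES control and 88.9 and 95.0 in SK-N-MC control (log2 -1.41 ± 0.08; limma adjusted p = 5.43e-05). DNAJC9, a chaperone of histones H3 and H4, was at 33.6 and 38.7 against 13.2 and 13.7 FPKM (log2 -1.36 ± 0.11; limma adjusted p = 0.000201). DNAJC11 was at 92.1 and 82.8 against 38.4 and 43.6 FPKM (log2 -1.08 ± 0.11; limma adjusted p = 0.000473). DNAJB6, which holds back protein aggregation, and DNAJC14 were also lower, by log2 -0.85 and -0.78. DNAJC9 shares 1819 exonic bases with FAM149B1, and DNAJC11 shares 1419 with THAP3, both on the other strand.

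The genes higher in SK-N-MC came from several compartments. DNAJC13, a protein of endosomes, was at 14.4 and 14.0 FPKM in RD-ES control and 35.1 and 33.7 in SK-N-MC control (log2 1.22 ± 0.10; limma adjusted p = 0.000161). DNAJA3, of the mitochondrial matrix, was at 44.3 and 46.0 against 92.9 and 90.9 FPKM (log2 1.01 ± 0.16; limma adjusted p = 0.00272), and DNAJC19 at 33.4 and 35.5 against 70.4 and 70.3 FPKM (log2 1.01 ± 0.13; limma adjusted p = 0.00102). DNAJC6, the auxilin that uncoats clathrin vesicles, was at 7.36 and 5.81 against 13.5 and 12.5 FPKM (log2 0.89 ± 0.15; limma adjusted p = 0.00356). DNAJC22 was at 1.02 and 0.587 against 3.09 and 2.60 FPKM (log2 1.10 ± 0.19; limma adjusted p = 0.00345), close to the filter in RD-ES. DNAJC19 has 9 listed copies with 11.2% of its level.

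By role, to be read against the 31.4% of all genes tested that were higher and the 26.4% that were lower, 3 of 5 vesicle genes were higher in SK-N-MC and none lower, 4 of 9 endoplasmic reticulum genes were higher (DNAJC10, DNAJB11, DNAJC1 and DNAJC18) and 2 lower (DNAJC14 and DNAJB12), and of 7 genes of nucleus, ribosome and cytosol 1 was higher (DNAJC17) and 3 lower (DNAJC8, DNAJC9 and DNAJC21). Class A held DNAJA3 higher and DNAJA1 and DNAJA2 lower. Of 6 class B genes of cytosol and nucleus DNAJB2 was higher and DNAJB6 lower, and DNAJB1, the stress-inducible HSP40, was at 33.6 and 40.3 against 31.9 and 33.8 FPKM (log2 -0.16 ± 0.11; limma adjusted p = 0.255). Setting the libraries to a common median moved the median of all genes in this comparison by -0.107 on the log2 scale, which gave 10 members higher and 25 lower. None of the 33 called members had another sign in any alternative, and 24 kept their call in all 14. Besides the 3 TRiC subunits named above, DNAJC18 lost it in 11, DNAJB11 and DNAJB12 in 6 each, and DNAJC1, DNAJC17 and DNAJC21 in 3 each; for each of these 6 genes at least 1 RD-ES control and 1 SK-N-MC control library had that effect when left out, with a limma adjusted p of 0.0585 to 0.192 without such a library.

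**Figure D3:**
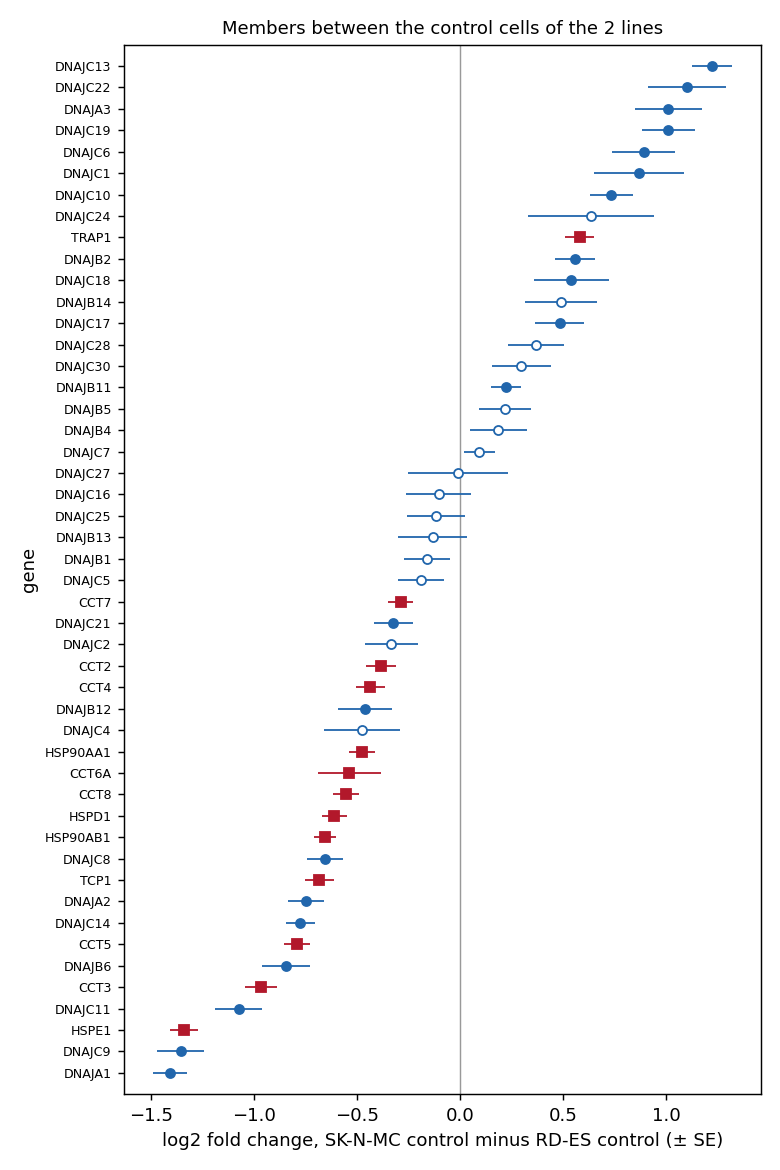
Log2 difference of each tested member between SK-N-MC control and RD-ES control (dot or square, with SE), sorted; red squares are the 13 HSP90, HSP60, HSP10 and TRiC genes, blue dots the DNAJ genes, and filled marks passed the adjusted threshold. All red squares but TRAP1 lie left of 0, from -1.34 for HSPE1 to -0.29 for CCT7, while DNAJ genes lie on both sides, from -1.41 for DNAJA1 to 1.22 for DNAJC13.

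Promoter windows from RefSeq (build GRCh38.p14) were found for 48 of the 53 members, 250 bases before and 50 after the start of transcription each. The heat shock element, the site of heat shock factor 1, was searched as GAANNTTC or TTCNNGAA, and in its longer form as GAANNTTCNNGAA or TTCNNGAANNTTC. These forms are their own or each other's reverse complement, so both strands were covered. The short form was in 6 member windows, or 12.5%, against 13.7% of 27305 promoters in all. The long form, which contains the short, was in 2 windows, DNAJA1 and DNAJB6, or 4.17%, against 0.487% of all promoters. The E-box CACGTG was in 4 windows, or 8.33%, against 7.43%; those of HSPD1 and HSPE1 overlap by 204 bases and hold the same E-box. HSP90AA1 and DNAJB1 held neither form of the element in these windows. A single window per gene was searched, so elements at any other start of these genes were not looked for.

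The windows of DNAJA1 and DNAJB6 are shown because they alone among the members held the long form. Both genes were lower in SK-N-MC, among the 21 of 48 tested members that were, and a link to the element was not tested. The window of HSPE1 is shown because HSPD1 starts 105 bases away on the other strand, so both genes share it. Capitals mark heat shock elements in the first and second window and the E-box in the last. In DNAJA1 a short element begins 198 bases before the start and the long one covers bases 4 to 16 after it. In DNAJB6 the long one lies from 131 to 119 bases before the start, and the E-box begins 22 bases before the HSPE1 start. The DNAJA1 window is chr9:33025023-33025302, that of DNAJB6 chr7:157336754-157337033 and that of HSPE1 chr2:197500129-197500408, all on the plus strand, and each runs 5′ to 3′ from 250 bases before the start to 30 after it.
DNAJA1: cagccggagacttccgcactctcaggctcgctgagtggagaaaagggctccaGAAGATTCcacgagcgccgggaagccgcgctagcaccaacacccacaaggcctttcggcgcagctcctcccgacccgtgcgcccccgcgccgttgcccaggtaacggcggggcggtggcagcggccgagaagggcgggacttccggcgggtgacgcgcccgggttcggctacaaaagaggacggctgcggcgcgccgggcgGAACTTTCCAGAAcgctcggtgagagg
DNAJB6: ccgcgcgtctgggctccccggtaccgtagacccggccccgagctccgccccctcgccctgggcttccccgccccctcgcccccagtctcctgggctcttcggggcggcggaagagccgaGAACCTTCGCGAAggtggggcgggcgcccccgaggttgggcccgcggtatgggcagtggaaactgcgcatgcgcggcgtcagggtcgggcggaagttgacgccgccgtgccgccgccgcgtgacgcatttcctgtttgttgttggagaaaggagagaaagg
HSPE1: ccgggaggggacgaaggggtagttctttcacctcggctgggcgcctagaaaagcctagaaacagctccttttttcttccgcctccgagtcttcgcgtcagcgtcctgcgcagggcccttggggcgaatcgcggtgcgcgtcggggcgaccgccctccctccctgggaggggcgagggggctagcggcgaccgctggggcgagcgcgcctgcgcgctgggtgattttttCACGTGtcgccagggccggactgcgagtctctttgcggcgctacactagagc

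Between control and eKD2 no member passed the adjusted threshold in either line. In RD-ES 0 of 48 members passed, against 0.343% of all genes tested, and in SK-N-MC 0 of 48, against 0.323%. Each of 15 alternative settings of the limma fit also gave 0 in both lines. The members' median log2 fold change was -0.0051 in RD-ES, where that of all genes was 0.03, and -0.09 in SK-N-MC, where that of all genes was -0.0049. The members below are described by their unadjusted p and are not called changed. With 2 libraries against 2, an exact permutation test cannot go under p = 0.333.

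In RD-ES at an unadjusted p under 0.05, 4 members were higher in eKD2 (8.49% of all genes) and 5 lower (3.79%). Median scaling gave 2 higher and 8 lower. Leaving out RD-ES control replicate 2 gave 1 higher, and leaving out RD-ES control replicate 1 gave 2 lower. By separation alone, 11 members had both eKD2 libraries above both controls (24.2% of all genes) and 9 had both below (15.1%).

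The highest of these in RD-ES by p was DNAJC13, at 14.4 and 14.0 FPKM in control and 19.8 and 20.4 in eKD2 (log2 fold change 0.48 ± 0.10; limma adjusted p = 0.175). DNAJB2, a J-protein with ubiquitin-binding motifs, was at 17.6 and 16.0 against 21.2 and 20.8 FPKM (log2 0.31 ± 0.10; limma adjusted p = 0.308). DNAJC6 was at 7.36 and 5.81 against 8.35 and 10.9 FPKM (log2 0.48 ± 0.15; limma adjusted p = 0.310). DNAJC18, of the endoplasmic reticulum membrane, was at 21.1 and 18.4 against 31.1 and 26.96 FPKM (log2 0.53 ± 0.18; limma adjusted p = 0.333). In each of these 4 genes both eKD2 libraries lay above both controls.

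On the lower side in RD-ES, DNAJB1 was at 33.6 and 40.3 FPKM in control and 28.6 and 26.2 in eKD2 (log2 -0.41 ± 0.11; limma adjusted p = 0.243). CCT3 was at 558 and 545 against 431 and 464 FPKM (log2 -0.30 ± 0.08; limma adjusted p = 0.241), the only TRiC subunit past the unadjusted threshold there. DNAJA1 was at 258 and 233 against 192 and 213 FPKM (log2 -0.28 ± 0.08; limma adjusted p = 0.280). HSPE1 was at 517 and 487 against 407 and 452 FPKM (log2 -0.23 ± 0.07; limma adjusted p = 0.291), and DNAJC17, a nuclear J-protein, at 27.2 and 27.1 against 19.8 and 23.5 FPKM (log2 -0.32 ± 0.12; limma adjusted p = 0.372). The eKD2 libraries lay below the controls in each. DNAJB1 overlaps TECR over 525 exonic bases on the other strand, and DNAJC17 overlaps GCHFR over 1149.

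In SK-N-MC at an unadjusted p under 0.05, 2 members were higher in eKD2 (5.71% of all genes) and 6 lower (7.29%). By separation, 7 members had both eKD2 libraries above both controls (22.2% of all genes) and 19 had both below (25.1%). The 2 higher ones, DNAJA1 and DNAJC22, became 0 without SK-N-MC eKD2 replicate 2, 1 without any other single SK-N-MC library, and 4 without either RD-ES eKD2 library.

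HSP90AA1 came nearest to the threshold of all members in any eKD2 comparison. It was at 461 and 453 FPKM in SK-N-MC control and 332 and 328 in eKD2, the groups far apart and the libraries within each close (log2 fold change -0.47 ± 0.06; limma adjusted p = 0.0678). Over 15 alternatives the limma adjusted p ran from 0.0655 to 0.325, and the log2 fold change from -0.48 to -0.45. In RD-ES the same gene was at 660.5 and 614 against 606 and 555 FPKM (log2 -0.13 ± 0.06; limma adjusted p = 0.456). Its close paralog HSP90AB1 was at 461 and 458 against 429 and 444 FPKM in SK-N-MC (log2 -0.08 ± 0.05; limma adjusted p = 0.606). The HSP90AA1 to HSP90AB1 ratio was therefore 1.00 and 0.987 in SK-N-MC control and 0.775 and 0.738 in SK-N-MC eKD2, against 0.882 and 0.874 in RD-ES control and 0.885 and 0.781 in RD-ES eKD2.

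Of the TRiC subunits in SK-N-MC, 3 stood past the unadjusted threshold, all lower in eKD2. CCT2 was at 328 and 331 FPKM in control and 272 and 256 in eKD2 (log2 -0.32 ± 0.07; limma adjusted p = 0.199). CCT8 was at 236 and 239 against 201 and 189.8 FPKM (log2 -0.28 ± 0.06; limma adjusted p = 0.195), and CCT5 at 459 and 513 against 407 and 413 FPKM (log2 -0.24 ± 0.06; limma adjusted p = 0.222). The other 5 subunits, CCT3, CCT4, CCT6A, CCT7 and TCP1, had log2 fold changes between -0.08 and 0.0061. In RD-ES, CCT2 and CCT8 gave values near 0, of -0.0093 ± 0.07 and -0.03 ± 0.06, with overlapping groups.

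The remaining SK-N-MC genes at an unadjusted p under 0.05 were DNAJ genes. DNAJB11 was at 74.7 and 76.9 FPKM in control and 64.9 and 62.1 in eKD2 (log2 -0.25 ± 0.07; limma adjusted p = 0.249). DNAJC11 was at 38.4 and 43.6 against 33.2 and 32.8 FPKM (log2 -0.30 ± 0.11; limma adjusted p = 0.346). DNAJC22 was at 3.09 and 2.60 against 4.44 and 5.44 FPKM (log2 0.62 ± 0.19; limma adjusted p = 0.272). DNAJA1 was at 88.9 and 95.0 against 108 and 107 FPKM (log2 0.22 ± 0.08; limma adjusted p = 0.343).

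The members not yet described gave little between control and eKD2. DNAJC16, of the endoplasmic reticulum, was at 11.2 and 11.6 FPKM in RD-ES control and 15.9 and 13.8 in eKD2 (log2 0.35 ± 0.16; limma adjusted p = 0.446). DNAJC2, a ribosome-bound J-protein, was at 40.6 and 43.6 against 36.6 and 37.7 FPKM in SK-N-MC (log2 -0.18 ± 0.13; limma adjusted p = 0.628), and shares 1400 exonic bases with PMPCB on the other strand. DNAJC28 was at 2.00 and 2.31 against 2.77 and 2.62 FPKM in RD-ES (log2 0.23 ± 0.14; limma adjusted p = 0.539). DNAJC24, needed for the diphthamide change of an elongation factor, was at 10.9 and 9.42 FPKM in RD-ES control and 20.4 and 9.89 in eKD2, where the high value was that of the shallowest library (log2 0.46 ± 0.31; limma adjusted p = 0.587). The other 8, DNAJB4, DNAJB5, DNAJB14, DNAJC4, DNAJC5, DNAJC25, DNAJC27 and DNAJC30, lay between 1.81 and 33.8 FPKM and passed the adjusted threshold in none of the 4 contrasts as fitted. Between the controls, 7 members that were not called passed in some of the 14 alternatives, DNAJC2 and DNAJC4 in 4 each, DNAJC24 in 2, and DNAJB1, DNAJB14, DNAJC5 and DNAJC28 in 1 each.

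**Figure D4:**
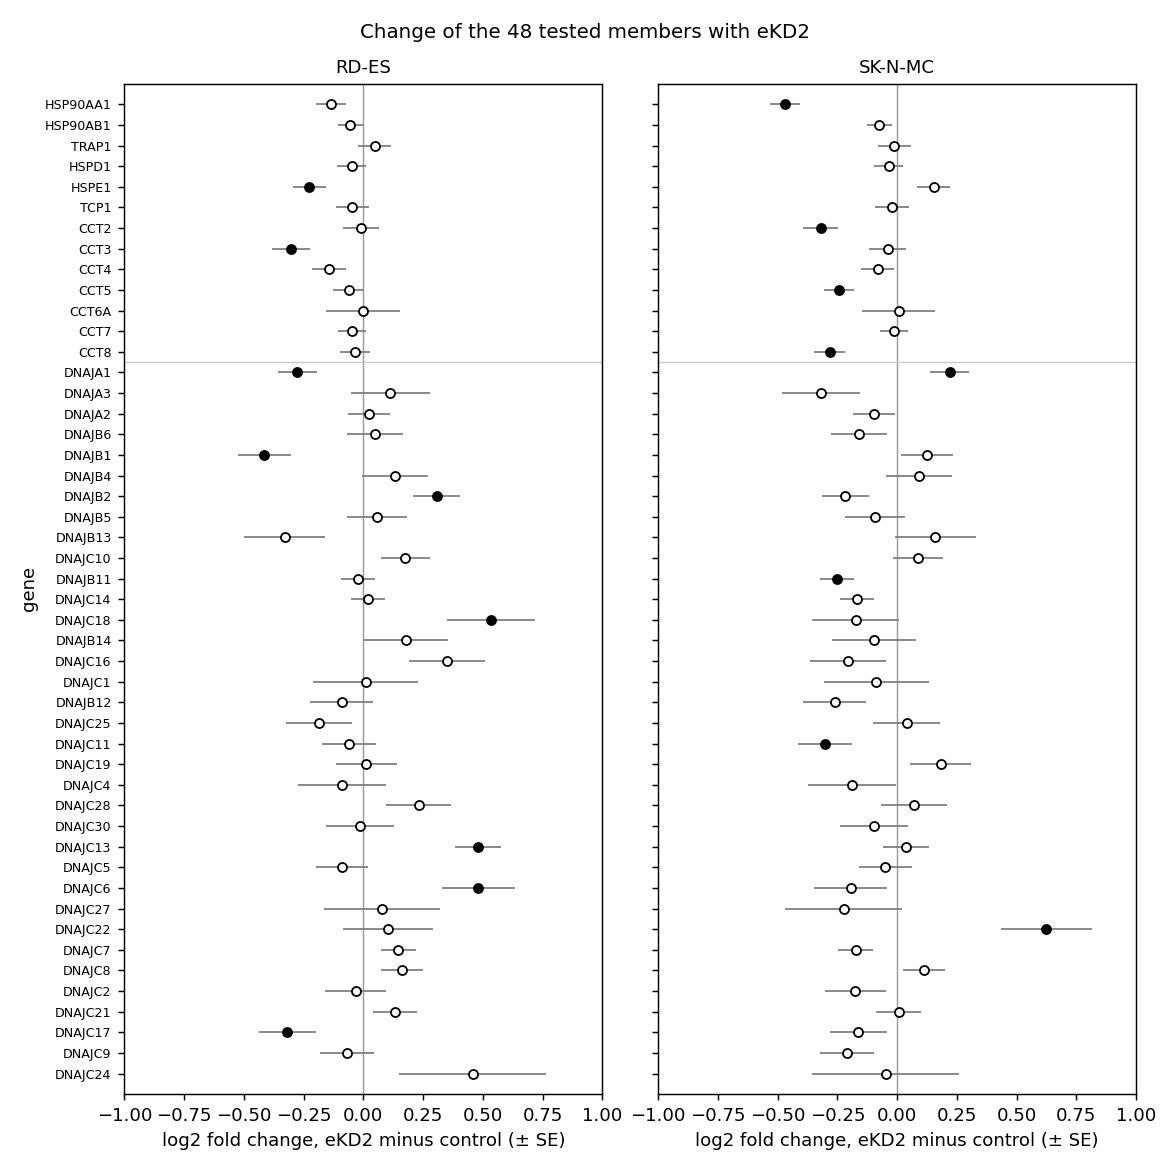
Log2 fold change of the 48 tested members, eKD2 minus control, with SE, in RD-ES (left) and SK-N-MC (right), the 13 HSP90, HSP60, HSP10 and TRiC genes above the line; filled points have an unadjusted p under 0.05 and none passed after adjustment. HSP90AA1 in SK-N-MC, at -0.47, is the furthest from 0 for its error, and DNAJA1 alone is filled in both panels, on opposite sides of 0.

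The 2 lines were next compared in their response. No member passed for the difference between the SK-N-MC change and the RD-ES change (0 of 48, against 0.244% of all genes tested). At an unadjusted p under 0.05, 3 members had the higher change in SK-N-MC (4.38% of all genes) and 9 the lower (9.16%). Median scaling turned these counts to 4 and 2. In 7 members the eKD2 libraries lay apart from the controls in opposite directions in the 2 lines, against 10.2% of all genes tested.

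DNAJA1, DNAJB1, HSPE1 and DNAJB13 were on the lower side in RD-ES eKD2 and on the higher side in SK-N-MC eKD2. For DNAJA1 the changes differed by 0.50 ± 0.12 on the log2 scale (limma adjusted p = 0.206). HSPE1 was at 193 and 202 FPKM in SK-N-MC control and 221 and 218 in eKD2, and its changes differed by 0.38 ± 0.10 (limma adjusted p = 0.227). DNAJB1 was at 31.9 and 33.8 against 34.2 and 37.6 FPKM in SK-N-MC, and its changes differed by 0.54 ± 0.16 (limma adjusted p = 0.255). Those of DNAJB13, close to the filter, differed by 0.49 ± 0.24 (limma adjusted p = 0.445).

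DNAJB2, DNAJC6 and DNAJC7 went the other way. DNAJB2 was at 23.2 and 27.2 FPKM in SK-N-MC control and 21.7 and 21.3 in eKD2, and its changes differed by -0.52 ± 0.14 (limma adjusted p = 0.230). DNAJC6 was at 13.5 and 12.5 against 11.5 and 10.9 FPKM in SK-N-MC, and its changes differed by -0.68 ± 0.22 (limma adjusted p = 0.288). DNAJC7 was at 153 and 141 against 162 and 164 FPKM in RD-ES and at 158 and 156 against 147 and 132 in SK-N-MC, with changes that differed by -0.32 ± 0.10 (limma adjusted p = 0.290). Its exons overlap NKIRAS2 on the other strand over 480 bases.

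**Figure D5:**
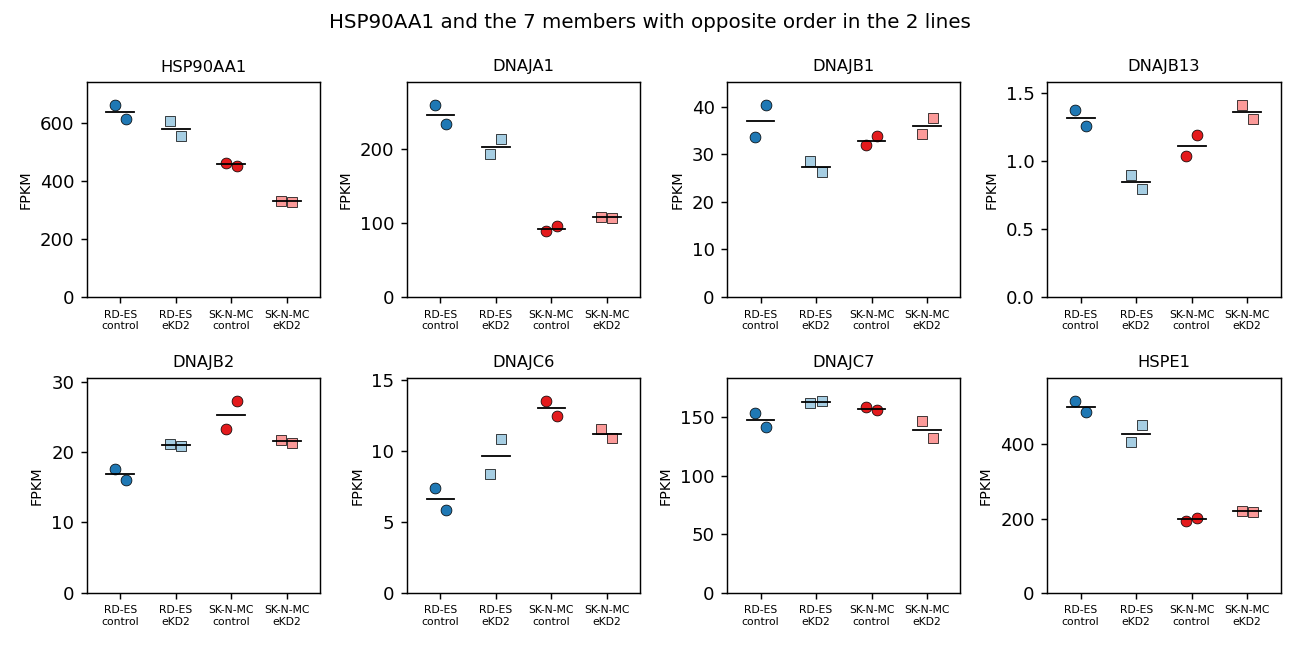
FPKM per library (points; the bar is the mean of 2 libraries; each axis starts at 0) for HSP90AA1 and the 7 members whose eKD2 libraries lay on opposite sides of the controls in the 2 lines. HSP90AA1 is lower in eKD2 in both lines, from 660.5 and 614 to 606 and 555 FPKM in RD-ES and from 461 and 453 to 332 and 328 in SK-N-MC.

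The same was looked for in genes that work with the members. Of 25 tested HSP90 co-chaperones, 18 tested prefoldin and TRiC partner genes, 4 other J-domain genes and 3 tested small heat shock proteins, none passed the adjusted threshold for eKD2 in either line. Of 19 HSP70 nucleotide exchange factors and partners 1 passed in both lines, HSPA8, the constitutive HSP70 that J-domain proteins serve. It was at 2897 and 2895 FPKM in RD-ES control and 1822 and 1938 in RD-ES eKD2 (log2 -0.62 ± 0.07; limma adjusted p = 0.0295). In SK-N-MC it was at 716 and 647 against 1294 and 1384 FPKM, in the opposite direction (log2 0.97 ± 0.07; limma adjusted p = 0.00647). The 2 changes differed by 1.60 ± 0.09 (limma adjusted p = 0.00268). Its call in RD-ES held in 3 of 15 alternatives and was lost with any single library left out (limma adjusted p of up to 0.496). Its call in SK-N-MC held in 11 of 15, being lost without either RD-ES control library, with each line fitted alone and with a replicate block. That of the difference held in 13 of 14 and was lost with the replicate block (limma adjusted p = 0.0862). No alternative turned its direction in either line, with log2 fold changes of -0.70 to -0.58 in RD-ES cells, against 0.86 to 1.05 for SK-N-MC. DNAJA1, DNAJB1, HSPE1 and DNAJB13 had the difference between lines in the direction of HSPA8, and DNAJB2, DNAJC6 and DNAJC7 in the other. None of these members passed the adjusted threshold, and a link to HSPA8 was not tested.

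Other partner genes gave smaller values. GRPEL2, on the list of HSP70 nucleotide exchange factors and partners, was at 17.8 and 16.0 against 22.3 and 19.8 FPKM in RD-ES (log2 0.30, limma adjusted p = 0.343). In SK-N-MC it was at 25.2 and 24.5 against 17.4 and 15.3 FPKM (log2 -0.58, limma adjusted p = 0.144). Its changes differed by -0.88 ± 0.15 (limma adjusted p = 0.135), opposite in direction to HSPA8. TOMM70, a mitochondrial import receptor that docks HSP90, was at 34.1 and 33.6 FPKM in RD-ES control and 47.98 and 44.8 in eKD2 (log2 0.44 ± 0.08; limma adjusted p = 0.156). SERPINH1, a collagen chaperone of the endoplasmic reticulum on the list of heat shock factor 1 targets, was at 278 and 271 against 223 and 227 FPKM in RD-ES and at 150.3 and 167 against 182 and 194 in SK-N-MC (log2 -0.28 and 0.25; limma adjusted p = 0.225 and 0.243). Of 16 tested heat shock factor 1 targets outside the members, HSPA8 alone passed the adjusted threshold. At an unadjusted p under 0.05, 6 of the 16 were lower in RD-ES eKD2 (3.79% of all genes), HSPA8 and SERPINH1 among them, and none higher (8.49%). In SK-N-MC 2 were higher (5.71% of all genes) and 1 lower (7.29%). Between the controls, AHSA1, the activator of HSP90's ATPase, was at 649.8 and 672 FPKM in RD-ES and 174 and 179 in SK-N-MC (log2 -1.90 ± 0.09; limma adjusted p = 3.31e-05), in the direction of HSP90AA1 and HSP90AB1. Of the 25 co-chaperones 5 were higher (20%) and 11 lower (44%) in SK-N-MC by the adjusted test, and of the 18 prefoldin and TRiC partners 1 was higher (5.56%) and 7 lower (38.9%), against 31.4% and 26.4% of all genes tested.

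The 3 DNAJ genes kept out by the rule gave no call for eKD2. DNAJC12 was at 24.5 and 20.6 FPKM in SK-N-MC control and 27.1 and 29.2 in eKD2 (log2 0.31 ± 0.10; limma adjusted p = 0.297). Those of DNAJB9 and DNAJC3, both of the endoplasmic reticulum, were 0.37 ± 0.19 and 0.04 ± 0.11 on the log2 scale in the same line.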

How the data were processed

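Poly-A RNA libraries of RD-ES and SK-N-MC cells, called biological duplicates by the study, were made with a kit that does not mark strand. Reads were aligned with STAR to GRCh37 (hg19) by the authors, who deposited FPKM values per gene from Cuffnorm, normalized across the 8 libraries; the deposited table holds no counts, so library depth is not given, no counting error can be stated, and the count test of the study could not be rerun. FPKM values of a member can shift with other abundant genes of its library.

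Here log2(FPKM + 1) was fitted with limma 3.58.1 in R 4.3.3 (lmFit, eBayes with trend; 4 groups in 1 fit) on the 15175 genes whose FPKM averaged 1 or more across libraries, with Benjamini-Hochberg adjustment over all of them and a threshold of 0.05. Fold changes are on the log2(FPKM + 1) scale, which understates those of low genes. Contrasts were eKD2 minus control in each line, the difference of these, and SK-N-MC control minus RD-ES control. For a symbol with several rows the row of highest mean was used. Named were all 13 non-DNAJ members, DNAJ members past the adjusted threshold in any contrast, the 12 of smallest unadjusted p in each eKD2 contrast, the 5 of highest mean and the highest of each role, and of each partner list at most 3 genes. The members, roles and lists were chosen with earlier results of these data known, and DNAJB3 was given its role after the table was seen. Overlaps and copies were read from GENCODE annotation on GRCh37. The fit was tested on simulated data. Alternatives were a pseudocount of 0.1, no filter, median scaling, quantile normalization, each line alone, no trend, a replicate block, and leaving out each library. PECAM1, on the marker list, was not found in the table by that symbol.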

Additional observations from a re-analysis of the deposited data

Results flagged for a closer look

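In 7 members every eKD2 library lay on one side of the controls in RD-ES and on the other side in SK-N-MC, against 10.2% of all genes tested. The difference between the SK-N-MC change and the RD-ES change was 0.50 on the log2 scale for DNAJA1, 0.54 for DNAJB1, 0.49 for DNAJB13 and 0.38 for HSPE1, and -0.52 for DNAJB2, -0.68 for DNAJC6 and -0.32 for DNAJC7. Each difference was tested in the limma fit, and the adjusted p ran from 0.206 for DNAJA1 to 0.445 for DNAJB13, so none passed.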

How the results depend on the processing

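Counts of members past the adjusted threshold stayed at 0 for eKD2 in both lines and for the difference between lines under every alternative run, and between the controls they ran from 26 to 35 against 33. At an unadjusted p under 0.05, median scaling gave 2 members higher and 8 lower in RD-ES, against 4 and 5, and a members' median log2 fold change of -0.068, against -0.0051. Leaving out a library gave 1 to 5 higher and 2 to 6 lower in RD-ES and 0 to 4 higher in SK-N-MC, where 2 were found. The latter count was 4 with each line fitted alone and 1 without trend. The replicate numbers were not shown to pair the libraries: across genes, the deviations of same-numbered control and eKD2 libraries from their group means correlated with r = 0.056 for RD-ES cells and r = 0.027 for SK-N-MC cells. A replicate block gave 1 member higher in SK-N-MC, 0 past the adjusted threshold for eKD2 and 31 between the controls, and over all genes it left 11 of 52 RD-ES and 5 of 49 SK-N-MC eKD2 calls by count. FPKM values hold no counts, so what depth limits could not be measured.

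Of 78 eKD2 log2 fold changes of named members, 33 had another sign in some alternative, none of them past the adjusted threshold, and 19 of these only when a library was left out. Quantile normalization gave 0.040 for CCT2, 0.026 for CCT5, 0.079 for CCT6A, 0.027 for CCT7, 0.020 for CCT8, 0.023 for HSP90AB1, 0.031 for HSPD1, 0.0030 for TCP1, -0.015 for DNAJA2, -0.064 for DNAJC1, -0.0018 for DNAJC14 and -0.020 for DNAJC19 in RD-ES. Median scaling gave -0.025 for TRAP1, -0.048 for DNAJA2, -0.025 for DNAJB6, -0.055 for DNAJC1, -0.050 for DNAJC14 and -0.058 for DNAJC19 in RD-ES. Leaving out a library in RD-ES gave ranges of -0.095 to 0.077 for CCT2, -0.21 to 0.21 for CCT6A, -0.11 to 0.012 for CCT7, -0.10 to 0.035 for CCT8, -0.11 to 0.018 for HSPD1, -0.12 to 0.031 for TCP1, -0.056 to 0.10 for DNAJA2, -0.15 to 0.38 for DNAJA3, -0.090 to 0.048 for DNAJB11, -0.25 to 0.068 for DNAJB12, -0.12 to 0.21 for DNAJB6, -0.30 to 0.32 for DNAJC1, -0.18 to 0.063 for DNAJC11, -0.18 to 0.21 for DNAJC19, -0.071 to 0.28 for DNAJC22, -0.18 to 0.045 for DNAJC9 and -0.20 to 0.13 for DNAJC2. In SK-N-MC it gave ranges of -0.14 to 0.060 for CCT3, -0.090 to 0.10 for CCT6A, -0.059 to 0.032 for CCT7, -0.076 to 0.0050 for HSPD1, -0.056 to 0.012 for TCP1, -0.093 to 0.068 for TRAP1, -0.24 to 0.068 for DNAJC1, -0.022 to 0.20 for DNAJC10, -0.081 to 0.16 for DNAJC13, -0.42 to 0.078 for DNAJC18, -0.054 to 0.068 for DNAJC21 and -0.033 to 0.17 for DNAJC28. The cause was not tested.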
